A study of Mus musculus with 18 samples.

Results

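Microglia are the resident macrophages of the retina, and in the undisturbed tissue they carry a characteristic set of transcripts. It was followed here through 9 genes, chosen by name, some of which other myeloid cells share: Cx3cr1, P2ry12, P2ry13, Gpr34, Siglech, Tmem119, Sall1, Aif1 and Ptprc. They are 9 of the 23420 gene symbols counted in each retina. RNA of whole retinas came from 9 wild-type BALB/cJ mice of both sexes, 8 to 10 weeks old by the study's methods, all on the light-sensitive Rpe65 background of this albino strain, in 3 groups of 3. Naïve mice were neither exposed to light nor treated. Vehicle-treated mice received daily intraperitoneal DMSO from the day before light, and TD139-treated mice received TD139, a galectin-3 inhibitor, at 15 mg/kg in DMSO on the same schedule. Both of these groups were exposed to white light of 15000 lux lasting 1 h, 4 days before their retinas were collected. No group received DMSO or TD139 without light, so light and vehicle cannot be told apart here.

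In homeostasis, microglia sense neurons and their surroundings through surface receptors. Cx3cr1 is the receptor of the neuronal chemokine fractalkine, P2ry12 and P2ry13 are receptors for ADP, Gpr34 responds to lysophosphatidylserine, and Siglech is a member of the siglec family. Tmem119 is a membrane protein used as a microglia marker, and Sall1 is a transcription factor that maintains microglia identity. Aif1 encodes IBA1, an actin-binding protein of microglia and macrophages in general, and Ptprc encodes CD45, found on all leukocytes. In the brain and retina, the purinergic receptors, Tmem119 and Sall1 are known to be lowered in disease-associated microglia, whereas Aif1 and Ptprc are expressed by myeloid cells more widely and rise in microglia on activation. Since whole retinas were measured, a lower or higher level cannot be divided between the number of these cells and the RNA that each of them held.

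All 9 genes were detected in every retina, at low levels. The summed counts of the 9 genes were 283, 234 and 226 in the naïve mice, 792, 873 and 941 in the vehicle-treated mice, and 501, 248 and 221 in the TD139-treated mice. TD139-treated mouse 1 thus stood apart from the other mice of its group, and values without it are given beside several of the results below. It was picked by the counts of these same genes, so a larger difference without it partly follows from that choice and is a description only. The libraries held 26171887 to 30201517 reads counted on genes, and levels are given below in CPM, the count of a gene relative to the total counts of its library scaled by TMM, where 1 count stands for 0.0331 to 0.0382 CPM before scaling. Differences were tested with the quasi-likelihood F test of edgeR over 15196 genes, and a gene was called at an adjusted p-value under 0.05. Every p-value measures the spread between single mice, 3 per group. Ptprc had fewer than 10 counts in each mouse outside the vehicle-treated group and passed the filter on low counts through that group. With no filter, its log2 fold changes were 2.79 and -2.61 in the first 2 comparisons below, against 2.78 and -2.62 with the filter.

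The upstream sequences of Cx3cr1, P2ry12, P2ry13 and Aif1 are shown because 2 of these genes were called in both light comparisons and the other two were not. Each runs from 250 bases before to 50 bases after the start in RefSeq on GRCm38.p6, 5′ to 3′ on the strand of the gene. Capitals mark the letters GAGGAA, the core bound by the myeloid factor PU.1, or CTANNNNTA, a short form of the MEF2 element, on either strand.
Cx3cr1, chr9:120068247-120068546, minus strand: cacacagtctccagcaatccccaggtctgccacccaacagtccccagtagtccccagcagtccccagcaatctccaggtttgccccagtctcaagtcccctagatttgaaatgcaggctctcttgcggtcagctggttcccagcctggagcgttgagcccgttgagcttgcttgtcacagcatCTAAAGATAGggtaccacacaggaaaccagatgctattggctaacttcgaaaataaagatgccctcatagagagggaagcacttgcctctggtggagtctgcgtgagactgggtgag
P2ry12, chr3:59262936-59263235, minus strand: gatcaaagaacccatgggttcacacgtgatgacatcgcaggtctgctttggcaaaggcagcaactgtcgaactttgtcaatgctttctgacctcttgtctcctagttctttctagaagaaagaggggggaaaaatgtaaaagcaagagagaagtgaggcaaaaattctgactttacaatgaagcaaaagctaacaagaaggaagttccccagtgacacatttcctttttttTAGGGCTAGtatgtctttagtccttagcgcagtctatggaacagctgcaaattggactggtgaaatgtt
P2ry13, chr3:59210833-59211132, minus strand: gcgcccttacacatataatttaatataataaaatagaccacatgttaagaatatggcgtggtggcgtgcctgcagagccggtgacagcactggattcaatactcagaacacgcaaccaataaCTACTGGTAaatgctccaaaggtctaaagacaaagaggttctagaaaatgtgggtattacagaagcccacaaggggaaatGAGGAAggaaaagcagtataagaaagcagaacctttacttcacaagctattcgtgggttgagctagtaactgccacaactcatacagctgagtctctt
Aif1, chr17:35176003-35176302, minus strand: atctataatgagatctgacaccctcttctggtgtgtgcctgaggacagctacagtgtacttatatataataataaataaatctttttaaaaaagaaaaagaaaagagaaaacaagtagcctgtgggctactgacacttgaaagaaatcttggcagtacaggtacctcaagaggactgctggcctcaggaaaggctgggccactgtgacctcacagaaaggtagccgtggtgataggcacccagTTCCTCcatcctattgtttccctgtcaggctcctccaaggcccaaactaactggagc
Windows were at hand for 7 of the genes, 10 windows in all, and none for Gpr34 or Tmem119. The PU.1 core lay in 4 of these 10 windows (Aif1, P2ry13, Ptprc and Siglech) and in 28.3% of 32851 mouse promoter windows of the same length. The MEF2 letters lay in 3 (Cx3cr1, P2ry12 and P2ry13) and in 21.0% of all windows. Other letters searched were GGAANNGAA of the combined ETS and IRF element, in 0 of the 10 windows and 8.24% of all, CAGAC of the SMAD box, in 4 and 49.6%, and TATAAA, in 1 and 13.6%. The letters thus did not divide the called genes from the others, and a match is a description of the sequence only.

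Cx3cr1 (ENSMUSG00000052336.7, GRCm38 chr9:119901616-120069879, minus strand) was the most abundant of the 9 genes by counts in 8 of the 9 mice, the exception being TD139-treated mouse 3, in which Tmem119 had 55 counts and Cx3cr1 had 50. Its level was 3.38, 3.13 and 2.13 CPM in the naïve mice, 12.2, 11.0 and 13 CPM in the vehicle-treated mice, and 7.82, 2.85 and 1.98 CPM in the TD139-treated mice. The vehicle-treated mice lay above all others, and in the TD139-treated group mouse 1 lay between the vehicle-treated and the naïve mice while mice 2 and 3 lay within or just below the naïve range. After light with vehicle, Cx3cr1 rose 4.19-fold (log2 fold change 2.07, standard error 0.44, adjusted p = 0.0268 in edgeR). Under TD139 it was 2.86-fold lower than under vehicle (log2 fold change -1.52, standard error 0.43, adjusted p = 0.0234 in edgeR). Without TD139-treated mouse 1, the log2 fold change was -2.32 (adjusted p = 0.000383 in edgeR). Against the naïve mice, the TD139-treated mice differed by 0.55 on the log2 scale, with a 95% interval from -0.41 to 1.52.

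The annotated span of Cx3cr1 holds Csrnp1, Gorasp1, Ttc21a and Xirp1 and meets Wdr48, with 0 shared exon bases, and the antisense transcript Gm33858 shares 78. The libraries were made with a kit that keeps the strand, but whether the counting used it is not given in the sources used here. Among these neighbors, Csrnp1 had means of 4.39, 6.74 and 3.11 CPM in naïve, vehicle-treated and TD139-treated mice, and its log2 fold change was -1.12 in TD139-treated against vehicle-treated mice (adjusted p = 0.00635 in edgeR). Ttc21a moved the other way, with 4.5, 1.85 and 5.03 CPM in the same order. Wdr48 lay between 76.8 and 112 CPM and Gorasp1 between 40.2 and 48.6 CPM in every mouse, and Xirp1 was at most 0.0768 CPM except in vehicle-treated mouse 2, at 0.918 CPM. Reads of these genes that might have been counted for Cx3cr1 were not tested.

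P2ry12 (ENSMUSG00000036353.13, chr3:59216272-59262871, minus strand), the ADP receptor with which microglial processes follow nucleotide release, was measured at 1.34, 0.867 and 0.953 CPM in the naïve mice. The vehicle-treated mice had 3.22, 2.19 and 1.88 CPM and the TD139-treated mice 3.26, 1.43 and 1.26 CPM. All vehicle-treated mice lay above the naïve mice. TD139-treated mouse 1 lay just above the highest vehicle-treated mouse, and mice 2 and 3 lay below the lowest, near the upper end of the naïve range. The difference of vehicle-treated from naïve mice did not pass the test (log2 fold change 1.2, standard error 0.41, adjusted p = 0.0875 in edgeR), although it did without TD139-treated mouse 1 (adjusted p = 0.0347), which shares the estimate of the spread. TD139-treated and vehicle-treated mice differed by -0.29 on the log2 scale, with a 95% interval from -1.15 to 0.57. Without TD139-treated mouse 1 that difference was -0.85 (adjusted p = 0.0878 in edgeR). P2ry12 was the 1 gene of the 9 with an unadjusted p-value under 0.05 between TD139-treated and naïve mice (log2 fold change 0.91, 95% interval from 0.015 to 1.81, adjusted p = 0.163 in edgeR), where 4492 of the 15196 tested genes had one. Without TD139-treated mouse 1 the log2 fold change was 0.36 (adjusted p = 0.526).

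P2ry13 (ENSMUSG00000036362.2, chr3:59207892-59210882, minus strand) lies next to P2ry12 and binds the same nucleotide. Its level was 0.768, 0.678 and 0.513 CPM in naïve, 0.822, 1.45 and 1.65 CPM in vehicle-treated, and 1.08, 0.244 and 0.356 CPM in TD139-treated mice. Vehicle-treated mice were above naïve mice by a narrow gap, and TD139-treated mice 2 and 3 were below all others while mouse 1 fell inside the vehicle-treated range. Neither comparison passed the test with all mice (log2 fold change 1.00, adjusted p = 0.235 for vehicle-treated against naïve mice, and -1.22, adjusted p = 0.0897 for TD139-treated against vehicle-treated mice, both in edgeR). The second did pass without TD139-treated mouse 1, at -2.12 (adjusted p = 0.00792), and the first did not (1.01, adjusted p = 0.125). That was the 1 of the 9 fits with 1 mouse left out in which the second passed. With all mice, the second passed in 2 of 12 alternatives, limma voom (-1.63, adjusted p = 0.00997) and run 1 only (-2.07, adjusted p = 0.0363), and was -0.58 with run 2 only (adjusted p = 0.432). The counts were 20, 18 and 14 in naïve, 23, 41 and 49 in vehicle-treated, and 29, 7 and 9 in TD139-treated mice.

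Both purinergic receptor genes lie within Med12l on the opposite strand, where P2ry12 shares 9 exon bases with it and P2ry13 shares 0. Med12l was higher than either, at 17.8 to 20.6 CPM in naïve, 19.4 to 26.6 CPM in vehicle-treated and 31.5 to 32.6 CPM in TD139-treated mice, and it was called higher in TD139-treated mice against both vehicle-treated (log2 fold change 0.54, adjusted p = 0.0130 in edgeR) and naïve mice (0.74, adjusted p = 0.0406 in edgeR). The call against naïve mice was lost, with every other call of that comparison, under the replicate block and under the length and GC correction. Its part in the counts of P2ry12 and P2ry13 was not tested.

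Gpr34 (ENSMUSG00000040229.11, chrX:13632089-13640858, plus strand) had the fewest counts after Ptprc in the naïve retina, with 12, 4 and 3 counts, or 0.461, 0.151 and 0.110 CPM. Vehicle-treated mice had 1.07, 0.495 and 0.974 CPM and TD139-treated mice 0.408, 0.487 and 0.395 CPM. The 3 groups formed an order without overlap between vehicle-treated mice and the others, but the gap between vehicle-treated mouse 2 and TD139-treated mouse 2 was smaller than the value of 1 count. Vehicle-treated mice differed from naïve mice by 1.81 on the log2 scale (standard error 0.55, adjusted p = 0.0659 in edgeR), and TD139-treated from vehicle-treated mice by -0.97 (standard error 0.51, adjusted p = 0.16 in edgeR). Gpr34 lies inside Cask, which is on the opposite strand and was measured at 58.1 to 81.3 CPM over all mice, with 0 shared exon bases.

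Siglech (ENSMUSG00000051504.18, chr7:55768178-55778925, plus strand) showed the smallest difference with light of the 9 genes. Its values were 0.884, 0.490 and 0.660 CPM in naïve, 0.930, 0.671 and 1.48 CPM in vehicle-treated and 1.26, 0.939 and 0.909 CPM in TD139-treated mice. The vehicle-treated range covered part of the naïve range and the whole TD139-treated range. Vehicle-treated and naïve mice differed by 0.60 on the log2 scale (95% interval from -0.28 to 1.47, adjusted p = 0.351 in edgeR). Between TD139-treated and vehicle-treated mice the difference was 0.01 (95% interval from -0.84 to 0.86, adjusted p = 0.985 in edgeR). The sign of this difference changed with single mice, as it was -0.22 without vehicle-treated mouse 2 and 0.37 without vehicle-treated mouse 3.

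Tmem119 (ENSMUSG00000054675.5, chr5:113793729-113800516, minus strand) separated the groups with the least spread. It was measured at 1.88, 1.47 and 1.72 CPM in the naïve mice, at 3.54, 4.45 and 4.64 CPM in the vehicle-treated mice, and at 1.71, 1.39 and 2.17 CPM in the TD139-treated mice. The vehicle-treated mice lay above every other mouse, and the TD139-treated mice lay across the naïve range. Light with vehicle raised Tmem119 2.48-fold (log2 fold change 1.31, standard error 0.26, adjusted p = 0.0216 in edgeR), and under TD139 it was 2.40-fold lower than under vehicle (log2 fold change -1.26, standard error 0.26, adjusted p = 0.00709 in edgeR). Unlike for Cx3cr1 and P2ry12, mouse 1 was not the highest TD139-treated mouse, and without it the second log2 fold change was -1.24 (adjusted p = 0.00925 in edgeR). TD139-treated and naïve mice differed by 0.05 on the log2 scale, with a 95% interval from -0.52 to 0.62, the narrowest of the 9 genes in this comparison.

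Sall1 (ENSMUSG00000031665.7, chr8:89027235-89044162, minus strand) rested on a single mouse. Its level was 0.768, 1.13 and 1.06 CPM in the naïve mice, 1.25, 4.17 and 0.840 CPM in the vehicle-treated mice, and 0.853, 0.905 and 0.830 CPM in the TD139-treated mice. Vehicle-treated mouse 2 was far above every other mouse, and without it the other 8 mice overlapped. The log2 fold change of vehicle-treated against naïve mice was 1.07 (adjusted p = 0.206 in edgeR) with that mouse and 0.08 (adjusted p = 0.917) without it. For TD139-treated against vehicle-treated mice it was -1.27 (adjusted p = 0.0813 in edgeR) with it and -0.27 (adjusted p = 0.617) without it. The same library held 141 CPM of Crybb1, a crystallin gene of the lens that is also listed among microglia genes, compared with 0.930 and 0.907 CPM in vehicle-treated mice 1 and 3 and 5.72 to 11.4 CPM in naïve mice. It held 91.7 CPM of Olfml3 against 25.9 and 28.7 CPM, and 25.1 CPM of Cbr2 against 0.357 and 0.941 CPM. These 3 genes were picked after their values were seen, and the part of what they mark in the value of Sall1 was not tested.

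Aif1 (ENSMUSG00000024397.14, chr17:35170991-35176068, minus strand) and Ptprc (ENSMUSG00000026395.16, chr1:138062861-138175708, minus strand), the 2 genes shared by myeloid cells or leukocytes in general, had the 2 largest fold changes of the 9 in both light comparisons. Aif1 was measured at 1.15, 0.829 and 0.916 CPM in naïve, 4.00, 5.05 and 6.08 CPM in vehicle-treated, and 1.85, 0.244 and 0.711 CPM in TD139-treated mice. Every vehicle-treated mouse lay above all naïve and TD139-treated mice, and the TD139-treated mice reached both above and below the naïve range. Aif1 rose 5.21-fold after light with vehicle (log2 fold change 2.38, standard error 0.53, adjusted p = 0.0284 in edgeR) and was 5.38-fold lower under TD139 than under vehicle (log2 fold change -2.43, standard error 0.53, adjusted p = 0.00935 in edgeR). Without TD139-treated mouse 1 the latter was -3.41 (adjusted p = 0.000578 in edgeR).

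Ptprc was close to the limit of detection outside the vehicle-treated group, with 6, 2 and 6 counts in naïve, 35, 39 and 32 in vehicle-treated and 9, 4 and 3 in TD139-treated mice. In CPM these were 0.231, 0.0754 and 0.22 in naïve, 1.25, 1.38 and 1.08 in vehicle-treated, and 0.334, 0.139 and 0.119 in TD139-treated mice. The vehicle-treated mice were again above all others, and the naïve and TD139-treated mice overlapped. Ptprc rose 6.89-fold with light and vehicle (log2 fold change 2.78, standard error 0.51, adjusted p = 0.0189 in edgeR). It was 6.13-fold lower under TD139 than under vehicle (log2 fold change -2.62, standard error 0.50, adjusted p = 0.00635 in edgeR), and -3.21 on the log2 scale without TD139-treated mouse 1 (adjusted p = 0.00225).

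**Figure D1:**
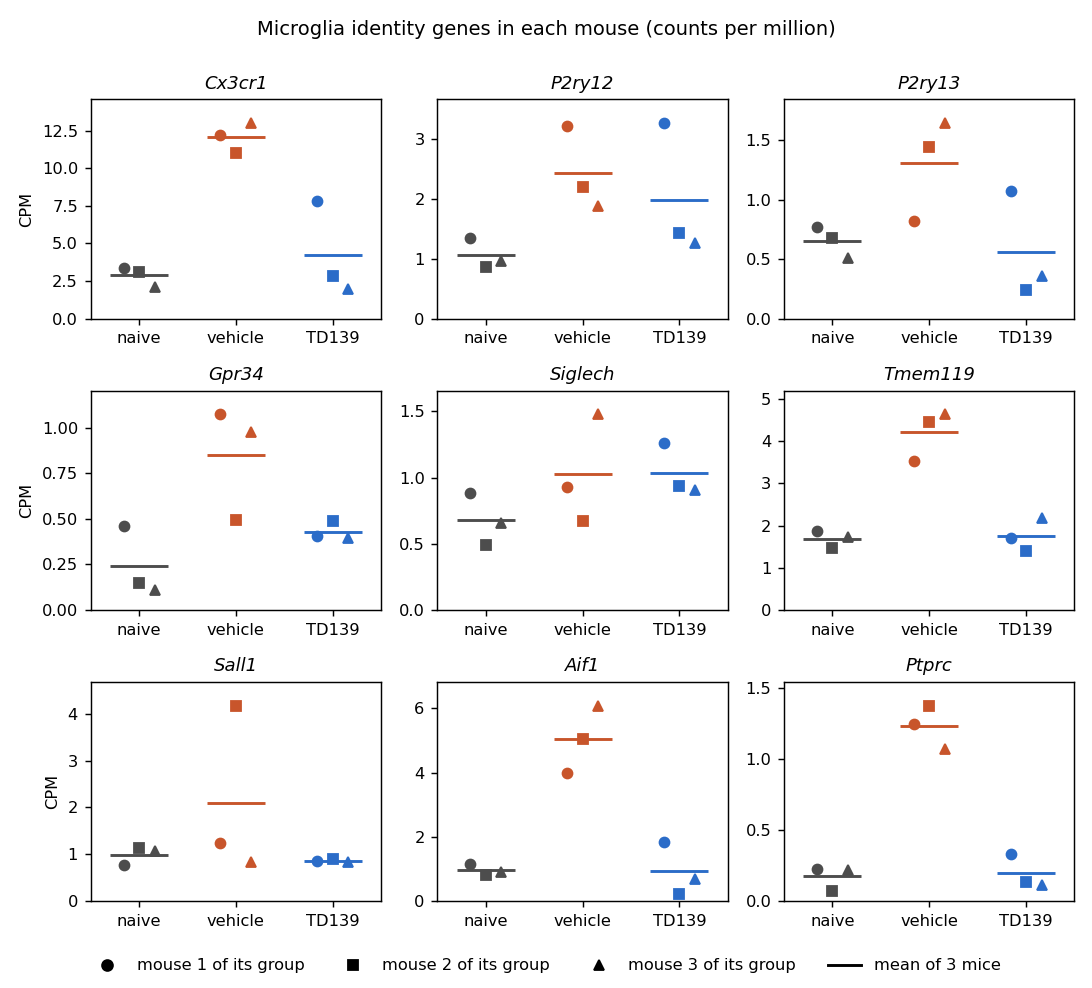
TMM-scaled CPM (vertical axis, from 0) of each of the 9 genes in every mouse, by group; each symbol is 1 mouse and each line the mean of 3 mice. For Cx3cr1, Tmem119, Aif1 and Ptprc the vehicle-treated mice lie above every other mouse, Sall1 is high in vehicle-treated mouse 2 (4.17 CPM), and TD139-treated mouse 1 is the highest of its group for Cx3cr1, P2ry12, P2ry13, Siglech, Aif1 and Ptprc.

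Vehicle-treated and naïve mice were compared to ask how the identity genes stand 4 days after light damage. Of the 9 genes, 4 were called higher in vehicle-treated mice (Cx3cr1, Tmem119, Aif1 and Ptprc) and 0 lower, where 4.91% of all tested genes were called higher and 2.89% lower. Of the called genes, 3 also had a log2 fold change of at least 2, the study's cut-off (Cx3cr1, Aif1 and Ptprc), against 1.24% of all tested genes. That number was 0 when any 1 naïve mouse, vehicle-treated mouse 1 or vehicle-treated mouse 3 was left out, because the adjusted p-values were then 0.05 or more, while the log2 fold changes of Aif1 and Ptprc stayed above 2. The point estimates of all 9 genes were above 0, with a median of 1.31 where the median of all genes was -0.00, and for 7 genes no vehicle-treated mouse overlapped a naïve mouse, as was so for 16.7% of all tested genes. Ptprc is among the 4, the 3 and the 7, but it passed the filter on low counts only through the vehicle-treated mice, where it is high. It is thus no support for these counts, and the median of the other 8 genes was 1.26. The 5 genes that were not called are not shown to be unchanged or higher, as the 95% intervals of Siglech (-0.28 to 1.47), P2ry13 (-0.14 to 2.13) and Sall1 (-0.07 to 2.21) included lower levels. The split of all calls depended on the scaling, with 746 higher and 439 lower genes under TMM, 893 and 258 with library size alone, and 945 and 2131 after a correction for transcript length and GC content that moved the median of all genes to -0.11. In the corrected fit, which tests each gene against 0 and not against the shifted median, the 4 genes were called, as was Gpr34 (log2 fold change 1.69, adjusted p = 0.0470). With limma voom, 6 genes were called, namely these 5 and P2ry12 (log2 fold change 1.42, adjusted p = 0.00734), in a fit that called 1867 genes higher and 1553 lower.

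These 4 calls depended on single mice, while the fold changes did not. With any 1 naïve mouse or vehicle-treated mouse 3 left out, edgeR called 0 of the 9 genes, and without vehicle-treated mouse 1 only Tmem119 was (adjusted p = 0.0422). Calls were lost over all genes in the same fits, where the 746 higher genes became 62, 1 and 140 without naïve mouse 1, 2 and 3 and 219 and 65 without vehicle-treated mouse 1 and 3, so the loss was not particular to the 9 genes. The adjusted p-values of Cx3cr1 without naïve mouse 1, 2 and 3 were 0.0702, 0.0934 and 0.0835, and 0.0713 and 0.0827 without vehicle-treated mouse 1 and 3. For Ptprc they were 0.0559, 0.0788, 0.0508, 0.0507 and 0.0613 in the same order. For Aif1 they were 0.0709, 0.108, 0.0838, 0.0637 and 0.0858, and for Tmem119, without naïve mouse 1, 2 and 3 and vehicle-treated mouse 3, 0.0562, 0.0830, 0.0560 and 0.0689. Over all 9 fits with 1 mouse left out, the log2 fold change lay between 1.90 and 2.21 for Cx3cr1, between 1.23 and 1.43 for Tmem119, between 2.22 and 2.54 for Aif1 and between 2.44 and 3.03 for Ptprc. In the same fits the adjusted p-value of Siglech was never below 0.239 and that of P2ry13 never below 0.125.

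**Figure D2:**
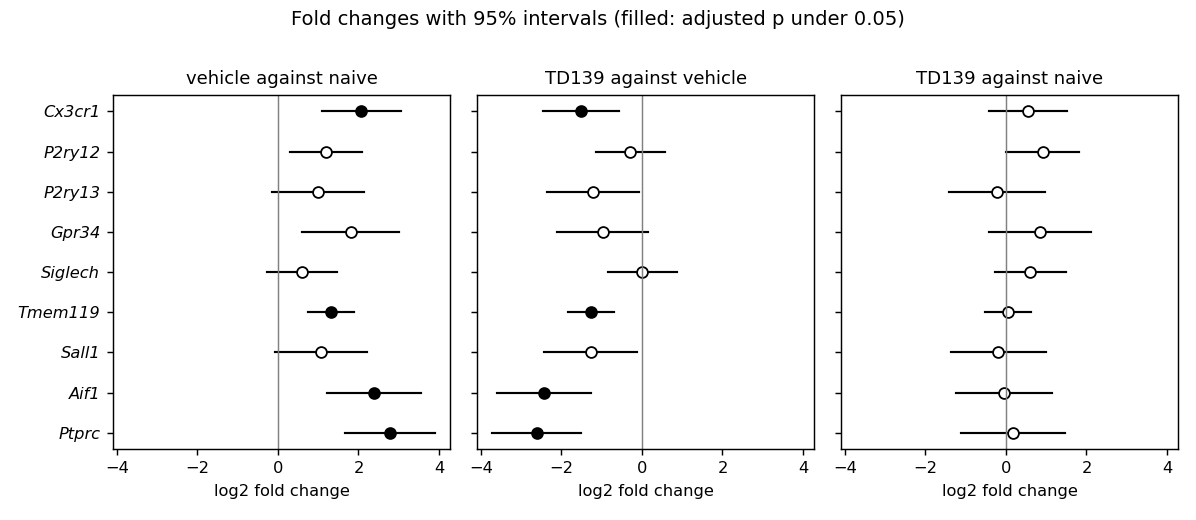
Log2 fold change (horizontal axis) of each gene in the 3 comparisons, with its 95% interval from edgeR; filled points have an adjusted p-value under 0.05. Ptprc (2.78), Aif1 (2.38) and Cx3cr1 (2.07) have the highest values in vehicle-treated against naïve mice, Siglech lies at 0.01 in TD139-treated against vehicle-treated mice, and no point is filled for TD139-treated against naïve mice.

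TD139-treated and vehicle-treated mice, both exposed to light, were compared to ask how galectin-3 inhibition bears on these genes. The vehicle-treated mice are the same 3 mice as above, so both comparisons move with them. Of the 9 genes, 4 were called lower in TD139-treated mice (Cx3cr1, Tmem119, Aif1 and Ptprc) and 0 higher, where 16.2% of all tested genes were called lower and 17.2% higher. A log2 fold change below -2 was reached by 2 of them, Aif1 and Ptprc, against 1.53% of all tested genes, and Ptprc alone did so once length and GC content were corrected for. For 5 genes, those 4 and Gpr34, all TD139-treated mice lay below all vehicle-treated mice, against 25.4% of all tested genes. Ptprc is in each of these counts, but it passed the filter on low counts only through the vehicle-treated mice, where it is high. It is thus no support for them, and the median log2 fold change of the other 8 genes was -1.24. The 9 genes had a median log2 fold change of -1.26 and all genes one of -0.02, which moved to -0.10 with library size alone and to 0.08 with the correction for length and GC content. After that correction, Aif1 was at -1.95 (adjusted p = 0.0173) and Tmem119 at -0.83 (adjusted p = 0.0340).

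Tmem119 and Ptprc were called lower in all 9 fits with 1 mouse left out, with adjusted p-values up to 0.0404 and 0.0394. Aif1 was called in 8 of them and had an adjusted p-value of 0.0504 without TD139-treated mouse 3. Cx3cr1 was called in 6, and not without TD139-treated mouse 2 (-1.30, adjusted p = 0.0999), TD139-treated mouse 3 (-1.18, adjusted p = 0.0630) or vehicle-treated mouse 3 (-1.46, adjusted p = 0.0700). Sall1 was called without vehicle-treated mouse 3 (-1.65, adjusted p = 0.0427). The number of called genes was 5 without TD139-treated mouse 1, 3 without mouse 2 and 2 without mouse 3. Over all genes, the 2455 lower genes became 2931, 759 and 867 in the same fits. The number called with a log2 fold change below -2 was 4 without mouse 1, adding Cx3cr1 and P2ry13, and 1 without either mouse 2 or mouse 3.

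**Figure D3:**
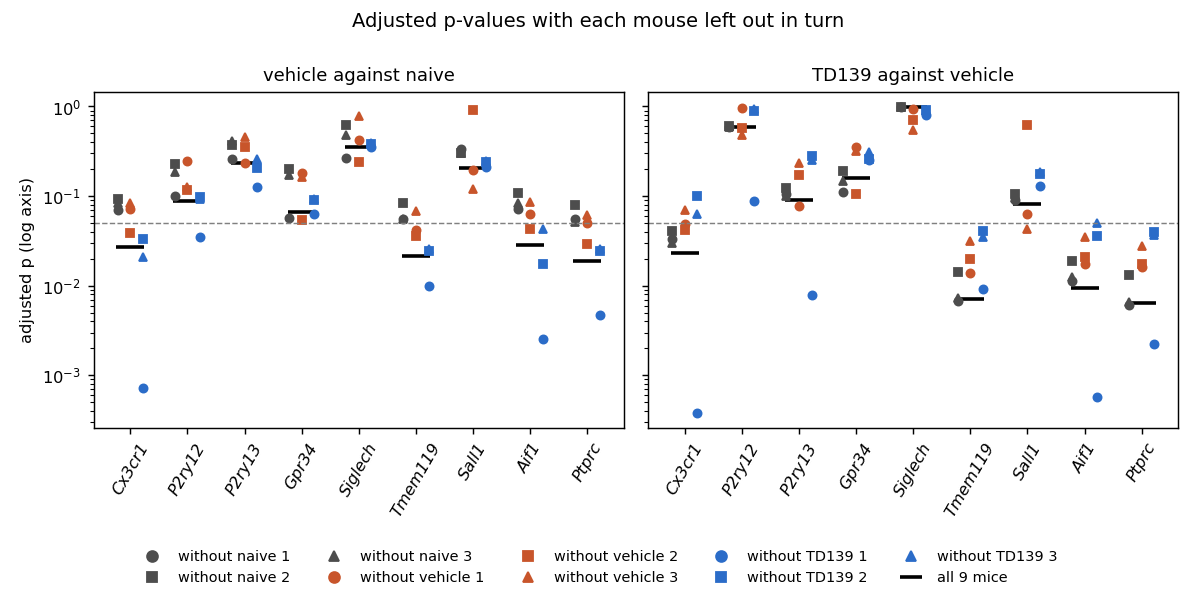
Adjusted p-values of edgeR (vertical log axis) for each gene with all 9 mice (black bars) and with each mouse left out (colored symbols); the dashed line is at 0.05. In vehicle-treated against naïve mice, the symbols of the 4 called genes lie on both sides of the line, while for TD139-treated against vehicle-treated mice those of Tmem119 and Ptprc all lie below it.

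Compared with the naïve mice, which are shared with the first comparison, 0 of the 9 genes were called in TD139-treated mice in edgeR, where 2.72% of all tested genes were called higher and 2.38% lower. Those 413 and 362 genes were not stable, since 0 and 0 were called with the replicate block, with the length and GC correction, and with any of naïve mice 1 and 2, vehicle-treated mouse 2 and TD139-treated mice 2 and 3 left out, and 1 and 0 with only the 2 groups, but 1523 and 1156 without naïve mouse 3. P2ry12 alone had an unadjusted p-value under 0.05, with all mice in. DESeq2 called 0 of the 9 genes, beside 1429 higher and 1157 lower over all genes, and limma voom called Gpr34 (log2 fold change 1.26, adjusted p = 0.0459), beside 3021 higher and 2457 lower of the 15196 genes, a larger share than 1 of 9. The medians were 0.17 for the 9 genes and -0.00 for all genes, and that of the 9 genes was -0.18 without TD139-treated mouse 1. All TD139-treated mice lay above all naïve mice for 1 gene, Siglech, against 15.3% of all tested genes. The 95% intervals do not show equal levels, as that of Aif1 ran from -1.25 to 1.15, that of Gpr34 from -0.43 to 2.10, that of Sall1 from -1.37 to 0.98, that of P2ry13 from -1.41 to 0.96 and that of Ptprc from -1.12 to 1.46.

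The 9 genes were then set against Aif1 within each mouse, since a ratio of 2 genes in a library does not depend on its scaling. In vehicle-treated mice, 4 of the 8 other genes stood lower relative to Aif1 than in naïve mice, without overlap, as did 94.4% of all tested genes. The count says nothing particular about these genes, and the values are a description. The log2 ratio of counts of P2ry13 to Aif1 was -0.57, -0.28 and -0.81 in naïve and -2.26, -1.79 and -1.87 in vehicle-treated mice. That of Siglech was -0.38, -0.74 and -0.46 in naïve and -2.09, -2.88 and -2.03 in vehicle-treated mice. The ratio of Tmem119 went from 0.80 ± 0.10 to -0.25 ± 0.12, and that of P2ry12 from 0.11 ± 0.09 to -1.07 ± 0.69 (SD, n = 3). Cx3cr1 differed least, with 1.54 ± 0.35 in naïve and 1.27 ± 0.29 in vehicle-treated mice, which overlapped, and the ratio of Ptprc was -2.46 ± 0.63 and -2.0 ± 0.43. In each of the 4 genes without overlap the exact two-sided permutation test gave p = 0.1, the smallest that 3 mice against 3 allow, and 0.2 after adjustment over the 8 ratios, so that none could pass. With Csf1r in place of Aif1, the differences were -0.70 for P2ry12, -0.94 for P2ry13, -1.33 for Siglech, -0.58 for Tmem119 and 0.21 for Cx3cr1.

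In TD139-treated mice the ratios to Aif1 were higher than in vehicle-treated mice, without overlap, for P2ry12, P2ry13, Siglech and Tmem119 (exact permutation p = 0.1 each, 0.2 adjusted), and for 94.3% of all tested genes. With Csf1r in place of Aif1, the differences were smaller, at 1.32 for P2ry12, 0.29 for P2ry13, 1.78 for Siglech and 0.44 for Tmem119, and that of Cx3cr1 went from 1.05 to -0.06. Siglech was at -0.55, 1.87 and 0.35 in TD139-treated mice. For Tmem119 the ratio was -0.12, 2.43 and 1.58, and mouse 1 was above the highest vehicle-treated mouse, at -0.18, by less than the spread of either group. Against naïve mice, P2ry12 alone did not overlap, with 0.81, 2.47 and 0.81 in TD139-treated and 0.22, 0.06 and 0.06 in naïve mice (exact permutation p = 0.1, adjusted 0.6), against 0.48% of all tested genes. TD139-treated mouse 2, in which Aif1 had 7 counts, had the highest ratio of its group for each of the 8 genes. A ratio shows unequal change only, and does not say which of the 2 genes changed.

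**Figure D4:**
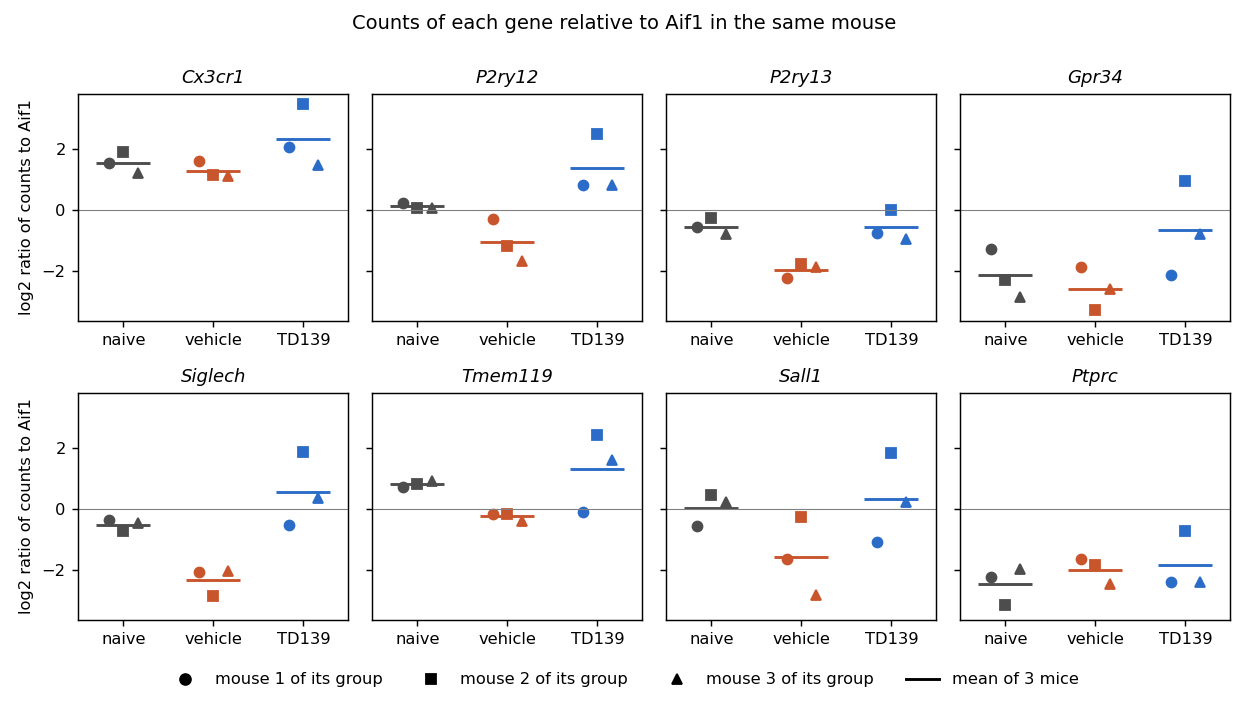
Log2 ratio of the counts of 8 genes to those of Aif1 in the same mouse (vertical axis, 0.5 added to each count), by group; symbols are mice and lines are means of 3 mice. In vehicle-treated mice the ratios of P2ry12, P2ry13, Siglech and Tmem119 lie below those of all other mice, while Cx3cr1 (mean 1.27) and Ptprc (mean -2.0) overlap the naïve mice.

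Levels of different genes were compared as RPKM, the CPM divided by the transcript length in kilobases from GENCODE. In naïve retinas the order was Aif1 (1.10 ± 0.19), Tmem119 (0.755 ± 0.093), Cx3cr1 (0.641 ± 0.148), P2ry12 (0.450 ± 0.109), Siglech (0.295 ± 0.086), P2ry13 (0.258 ± 0.051), Sall1 (0.188 ± 0.037), Gpr34 (0.115 ± 0.092) and Ptprc (0.0345 ± 0.0171) (SD, n = 3). Aif1 stood above Tmem119 and Gpr34 above Ptprc in every mouse, and all other neighbors in this order overlapped. In vehicle-treated retinas Cx3cr1 (2.69 ± 0.23) stood second after Aif1 (5.77 ± 1.19) and above Tmem119 (1.88 ± 0.26), and each of the first 4 genes, down to P2ry12 (1.04 ± 0.30), lay above the next without overlap, while those from P2ry13 (0.516 ± 0.170) downwards overlapped. Under TD139, Aif1 (1.07 ± 0.95), Cx3cr1 (0.939 ± 0.702), P2ry12 (0.847 ± 0.473) and Tmem119 (0.784 ± 0.175) overlapped. P2ry12 thus had rank 4 of the 9 in naïve and in vehicle-treated mice and rank 3 in TD139-treated mice, with no gap to its neighbors there. By length, Cx3cr1 was not the most abundant of the genes on the mean of any group, since its transcript of 4493 bases is longer than the 875 of Aif1.

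Other genes known from homeostatic microglia went the same way in part. Of 19 such genes in the files, 18 were tested. After light with vehicle 7 were called higher and 0 lower, against 4.91% and 2.89% of all tested genes, with a median log2 fold change of 1.67. In TD139-treated against vehicle-treated mice, 8 were called lower and 2 higher, with a median of -1.21. Over all tested genes these shares were 16.2% and 17.2%, and the 2 higher genes are a smaller share than the latter. Over the 13 genes that did not need the vehicle-treated mice to pass the filter on low counts, the medians were 1.08 and -0.94. Abundant genes of this list were Cst3, a secreted protease inhibitor, with 1030 ± 325 CPM in naïve and 1006 ± 203 CPM in vehicle-treated mice, and Mef2c, a transcription factor also used by photoreceptors. Mef2c was 34.3 ± 9.3 CPM in vehicle-treated and 72.1 ± 20.2 CPM in TD139-treated mice (log2 fold change 1.07, adjusted p = 0.0114 in edgeR), 1 of the 2 genes that were higher, with Tgfbr1. Csf1r, Fcrls, Irf8, Ltc4s, Runx1 and Tgfbr2 were among the 7 called with light. Of these, Fcrls, Ltc4s and Runx1 passed the filter only through the vehicle-treated mice, where they are high, and they are also among the 8 lower genes, so neither count is support for the list. The number of called genes was 1, 0 and 1 without naïve mouse 1, 2 and 3, and 3 and 0 without vehicle-treated mouse 1 and 3, and the 8 lower genes became 4 and 5 without TD139-treated mouse 2 and 3.

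Genes that microglia raise on activation were measured beside them. Of 17, 16 were tested. With light and vehicle 10 were called higher and 0 lower, against 4.91% and 2.89% of all tested genes, with a median log2 fold change of 2.17. Itgax, Clec7a and Ch25h, of which Clec7a is among the 10, passed the filter on low counts only with the help of the vehicle-treated mice, where they are high, and the median of the other 13 was 1.47. Under TD139, 10 were called lower than under vehicle and 0 higher, against 16.2% and 17.2% of all tested genes, with a median of -1.90, or -1.51 over those 13. The most abundant were Apoe, which Müller glia also express, Ctsd and Ctsb, 2 lysosomal proteases. Apoe rose from 713 ± 140 to 1914 ± 144 CPM and was 764 ± 445 CPM under TD139, Ctsd went from 494 ± 37 to 1368 ± 263 and 480 ± 207 CPM, and Ctsb from 455 ± 35 to 861 ± 120 and 473 ± 90 CPM (SD, n = 3), each called in both comparisons. The spread under TD139 came from mouse 1, with 1278, 502 and 513 CPM of Apoe and 719, 357 and 365 CPM of Ctsd in the 3 mice. The higher genes numbered 2, 0 and 2 without naïve mouse 1, 2 and 3, 3 and 1 without vehicle-treated mouse 1 and 3, and 16 without TD139-treated mouse 1. The lower genes numbered 17, all genes of the list, without TD139-treated mouse 1 and 4 without TD139-treated mouse 2 or 3 or vehicle-treated mouse 3. Called genes of this list and of the identity genes share the same mice, and no test set one list against the other.

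Ligands and partners of the receptors behaved unevenly. Cx3cl1, the fractalkine of neurons, was 128 ± 7 CPM in naïve, 145 ± 4 CPM in vehicle-treated and 137 ± 7 CPM in TD139-treated mice and was not called in any comparison (log2 fold change 0.18, adjusted p = 0.183 with light). Around the ADP receptors, Nt5e, the ectonucleotidase that forms adenosine, fell by 0.96 on the log2 scale with light (from 198 ± 15 to 101 ± 18 CPM, adjusted p = 0.0235 in edgeR) and was higher under TD139 (211 ± 56 CPM, log2 fold change 1.06, adjusted p = 0.00619 in edgeR). Entpd1, which degrades ATP and ADP, and the channel Panx1 were not called (log2 fold change 0.55 and 0.39 with light, adjusted p = 0.295 and 0.217), nor was the adenosine receptor gene Adora2a (0.36, adjusted p = 0.663). Csf1, a growth factor of microglia, rose from 7.77 ± 0.78 to 21.6 ± 5.1 CPM (adjusted p = 0.0192) and was 8.02 ± 3.37 CPM under TD139 (adjusted p = 0.00624 against vehicle), while Il34, the other ligand of the same receptor, was not called (0.21, adjusted p = 0.380).

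TGF-β signaling keeps Sall1 and the homeostatic set expressed. Tgfb1 rose with light from 3.04 ± 0.34 to 8.46 ± 1.45 CPM (log2 fold change 1.48, adjusted p = 0.0127 in edgeR) and was 2.47 ± 0.18 CPM under TD139 (-1.77 against vehicle, adjusted p = 0.00500). Tgfb2 rose from 77.8 ± 4.7 to 113 ± 0.6 CPM (adjusted p = 0.0127) and was the 1 gene of this list called between TD139-treated and naïve mice (97.4 ± 4.8 CPM, log2 fold change 0.32, adjusted p = 0.0491), a call lost with the replicate block or the length and GC correction. Smad4 was higher under TD139 than under vehicle (0.61, adjusted p = 0.0131), and Tgfb3, Smad3 and Lrrc33, the anchor of latent TGF-β1 on microglia, were not called with light (0.29, 0.15 and 0.74, adjusted p = 0.189, 0.5 and 0.0938). Cd200 was 30.3 ± 2.7, 35.6 ± 3.3 and 36.9 ± 0.9 CPM in the 3 groups, and its receptor Cd200r1 was led by naïve mouse 3, at 7.26 CPM. Cd22, a siglec, was at 0, 0 and 0.110 CPM in naïve and 1.14, 0.530 and 1.92 CPM in vehicle-treated mice (adjusted p = 0.0401), and it passed the filter on low counts only through the vehicle-treated mice, where it is high. Of the 16 tested genes of this list, 4 were called higher and 1 lower with light, against 4.91% and 2.89% of all tested genes. Under TD139, 2 were called lower and 2 higher, smaller shares than the 16.2% and 17.2% of all tested genes. The 4 became 2, 0 and 2 without naïve mouse 1, 2 and 3 and 2 without vehicle-treated mouse 3, and the 2 lower genes became 4 without TD139-treated mouse 1, with DESeq2 or with library size alone.

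Markers of other cells were read beside the identity genes, since Cx3cr1, Aif1 and Ptprc are shared with cells that could enter the retina. Of 9 neutrophil genes, 6 had at most 3 counts in every mouse, S100a9, Cxcr2 and Retnlg among them, and Retnlg was at 0 in all mice. Csf3r was the single gene tested, at 0.450 ± 0.094 CPM in naïve, 2.36 ± 0.21 CPM in vehicle-treated and 1.85, 0.348 and 0.435 CPM in the TD139-treated mice, mouse 1 being the highest (log2 fold change with light 2.38, adjusted p = 0.0318 in edgeR), and it lost its call without any 1 naïve or vehicle-treated mouse. Of 12 lymphocyte genes, 7 had at most 3 counts in every mouse, and 3 of these 7 were at 0 in all mice (Cd3e, Cd3g and Ms4a1). Of 10 dendritic cell genes, 6 had at most 3 counts in every mouse, and 5 of these 6 were at 0, Xcr1 and Cd209a among them. In neither list was any tested gene called. Summed over the lists, the neutrophil genes held 0.384 to 0.733 CPM in naïve mice, 2.40 to 3.02 CPM after vehicle and 0.452 to 2.0 CPM after TD139. The lymphocyte genes held 1.5 to 2.15, 1.59 to 2.96 and 1.32 to 2.13 CPM in the same order, and the dendritic cell genes 5.80 to 7.0, 4.77 to 7.09 and 5.98 to 7.15 CPM.

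Of 11 monocyte genes, 6 were tested and none was at 0, and their sum was 44.6 to 58.2 CPM in naïve, 85.1 to 88.2 CPM in vehicle-treated and 57.0 to 73.8 CPM in TD139-treated mice, most of it from Fn1 and Thbs1, which vascular and glial cells also express. Thbs1 rose with light (1.85, adjusted p = 0.0127 in edgeR) and fell under TD139 (-1.30, adjusted p = 0.00526), while Ly6c2, a marker of inflammatory monocytes, was 0.378 ± 0.143, 0.439 ± 0.164 and 0.413 ± 0.185 CPM in the 3 groups. Of 11 genes of border-associated macrophages, 7 were tested and none was at 0. With light 3 were called higher, against 4.91% of all tested genes. Under TD139, 4 were called lower and 1 higher, against 16.2% and 17.2%. The sums were 19.5 to 24.5, 38.5 to 57.5 and 22.6 to 27.0 CPM in the 3 groups. Cbr2 gave 25.1 CPM of the sum in vehicle-treated mouse 2, against 0.357 and 0.941 CPM in mice 1 and 3. Lyve1, also in the sums, was 14.9 CPM in naïve and 12.9 CPM in vehicle-treated mice on average. Ms4a7 and Siglec1, 2 of the 3 and also 2 of the 4, passed the filter only through the vehicle-treated mice, where they are high. Without naïve mouse 1 or 2 the 3 became 0, and without vehicle-treated mouse 1 or 3 they became 1. The 4 lower genes became 2 with the length and GC correction or without vehicle-treated mouse 1, and 1 without vehicle-treated mouse 3 or TD139-treated mouse 2 or 3. The part of such cells in the levels of Cx3cr1, Aif1 and Ptprc was not tested.

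The share of rod transcripts in the RNA also differed, which does not divide the number of rods from the RNA that each held. Of 8 rod genes, 6 were called lower with light and vehicle, against 2.89% of all tested genes, and 5 higher under TD139, against 17.2%. Their sum was 68158 to 77101 CPM in naïve, 39474 to 54915 CPM in vehicle-treated and 56203 to 70008 CPM in TD139-treated mice. The 6 became 0 without any 1 naïve mouse and without vehicle-treated mouse 1 or 3, and the 5 became 3 without vehicle-treated mouse 1 and 2 without vehicle-treated mouse 3 or TD139-treated mouse 2 or 3. Of 8 Müller glia genes, 6 were called higher with light and 4 lower under TD139, against 4.91% and 16.2% of all tested genes. Those 6 became 0, 0 and 1 without naïve mouse 1, 2 and 3, and 1 and 0 without vehicle-treated mouse 1 and 3, and the 4 became 2 without vehicle-treated mouse 3 or TD139-treated mouse 2 or 3. Their sum was 5770 to 6445, 9996 to 10664 and 5672 to 7967 CPM in the 3 groups. Between TD139-treated and naïve mice, 1 monocyte gene and 1 Müller glia gene were called higher, Itga4 (log2 fold change 0.84, adjusted p = 0.0466 in edgeR) and Aqp4, and both calls were lost with the replicate block or the length and GC correction. The part of rods and Müller glia in the values of the microglia genes was not tested.

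The mouse-by-mouse pattern of the 9 genes was summarized by the median of their log2 CPM, each centered on its naïve mean. It was 0.25, -0.19 and -0.06 in naïve, 1.57, 1.37 and 1.42 in vehicle-treated, and 0.78, -0.10 and -0.21 in TD139-treated mice. Among 13089 other genes averaging 50 counts per mouse or more, the 8 nearest to this pattern by root mean square difference over the 9 mice included Tgfbr2 (0.16), Cxcl16 (0.17), Gusb (0.17), 4632428N05Rik (0.20), Apoe (0.20), Sepp1 (0.22) and Pdlim3 (0.23). Tgfbr2 was at 1.33, 1.14 and 1.33 in vehicle-treated and at 0.58, 0.08 and -0.25 in TD139-treated mice. All 8 were called higher in vehicle-treated than naïve mice and lower in TD139-treated than vehicle-treated mice, which follows from how they were chosen.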

How the data were processed

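Retinal RNA was sequenced from 9 mice, each in 2 runs. Per the labels and methods, libraries were made with a stranded mRNA kit and run as single reads, and the authors deposited read counts per gene symbol (mm10 in the submitters' processing notes). The annotation and strand setting of the counting are not given in the sources used here. The RNA kit is named differently in the labels and the methods.

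The 2 runs of a mouse were summed, since they differed by 1.60 to 1.76 in chi-square per degree of freedom and mice of a group by 14.8 to 65.3. Reads without a gene (16.5 to 22.8%) or on several genes (0.303 to 0.471%) were left out. Those without a gene were 21.3, 22.8 and 22.6% in the TD139-treated mice and at most 19.9% in the other mice. The bearing of this on the comparisons was not tested. The 23420 symbols were joined to GENCODE on GRCm38 (98.5%). Genes were filtered with filterByExpr, scaled by TMM and fitted over all 3 groups with the robust quasi-likelihood test of edgeR 4.0.16 in R 4.3.3, and p-values were adjusted by Benjamini-Hochberg over 15196 genes. On data simulated from these libraries, 190 of 200 changed genes were found with 9 false calls for vehicle-treated against naïve mice, and 188 with 6 for TD139-treated against vehicle-treated mice. These 200 genes were given a log2 change of 2 up or down and were drawn above a minimum mean count that Gpr34 and Ptprc do not reach. The rates thus do not apply to smaller changes or to such low counts. Alternatives used DESeq2 1.42.0, limma 3.58.1 voom, other filters and scalings, a correction for length and GC content, a replicate block, single runs and 1 mouse left out. The 95% intervals of fold changes are from the same fit, and CPM values near the limit of 3 counts (0.0993 to 0.115 CPM) carry counting error besides.

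The 9 genes, the gene lists and the tests were chosen with earlier results of these data known, so no pattern here is independent support. Named genes are the 9 genes, the 3 most abundant of each gene list, genes of the ligand list, genes overlapping the 9, and the 8 nearest in pattern. Any other gene was chosen after its values were seen, and some genes that the rule names are not reported here. Promoter windows are RefSeq's on GRCm38.p6.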

Additional observations from a re-analysis of the deposited data

How the results depend on the processing

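Over 12 alternatives to the processing, the number of the 9 genes called higher in vehicle-treated than naïve mice was 4 to 6, and the number called lower in TD139-treated than vehicle-treated mice 4 to 5. With 1 mouse left out these numbers ran from 0 to 5 and from 2 to 5, while those over all genes ran from 1 to 1167 and from 759 to 2931. Between TD139-treated and naïve mice it was 0, except 1 with limma voom. Apart from leaving out mice, 290 fold changes kept direction and side of the threshold, 12 changed sign, 8 passed newly (with light P2ry12 in 3 fits and Gpr34 in 2, under TD139 P2ry13 in 2, and Gpr34 in 1 between TD139-treated and naïve mice) and 1 no longer passed (Tmem119 with run 2 only, vehicle-treated against naïve mice, 1.01, adjusted p = 0.0890). With mice left out, 204 kept both, 13 changed sign, 3 passed newly and 23 no longer passed. The cause of these changes was not tested.

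No sign change touched a called difference. Siglech in TD139-treated against vehicle-treated mice was at -0.077 with library size alone, -0.12 with run 2 only, and -0.06, -0.22 and -0.15 without vehicle-treated mouse 1, vehicle-treated mouse 2 and TD139-treated mouse 1, but 0.37 without vehicle-treated mouse 3. The others were in TD139-treated against naïve mice. Cx3cr1 was at -0.19 with limma voom and -0.24 to 0.90 with 1 mouse left out (TD139-treated mouse 1 and 3). P2ry13 was at 0.67 with run 2 only, and -1.11, 0.14 and 0.02 without TD139-treated mouse 1, 2 and 3. Tmem119 was at -0.34 with run 2 only, -0.03 without naïve mouse 2 and 0.20 and -0.12 without TD139-treated mouse 2 and 3. Sall1 was at 0.056 with run 1 only. Aif1 was at 0.25 with the length and GC correction, 0.12 with it and the replicate block, 0.11 with run 2 only, 0.11 without naïve mouse 1, and -1.02, 0.42 and 0.12 without TD139-treated mouse 1, 2 and 3. Ptprc was at -0.18 and -0.21 with the same 2 corrections, -0.61 with run 2 only, -0.17 without naïve mouse 2 and -0.42 without TD139-treated mouse 1.

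The groups share replicate numbers, and the deviations of same-numbered mice gave 9 correlations from -0.26 to 0.28, 2 of them over 0.1. Pairs with different numbers spanned a like range, from -0.28 to 0.23. The check thus does not tell whether same-numbered mice share more than a number. With the replicate block, 4, 4 and 0 genes were called in the 3 comparisons, with log2 fold changes of 2.13 for Cx3cr1, 1.31 for Tmem119, 2.46 for Aif1 and 2.83 for Ptprc in vehicle-treated against naïve mice. Over all genes, the block left 559 higher and 341 lower there, against 746 and 439 without it.

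Gpr34 was not tested in single runs, Gpr34 and Siglech not with a minimum of 1 CPM, and Ptprc not between TD139-treated and naïve mice with only those 2 groups. Counts per mouse of 2 to 49 for P2ry13, Gpr34, Siglech and Ptprc set the depth limit.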
